A study of Mus musculus with 6 samples.

Results

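The genes described here encode the enzymes, transporters and controllers that take up glucose, break it down to lactate, and store it as glycogen or release it again. A list of 41 gene symbols defined them, and 40 had a row among the 43074 rows of the deposited count table; Aldoa is not analysed here. After the filter on low counts, 38 of them entered the test. Pygl (liver glycogen phosphorylase), with 1 and 2 counts at day 0, 0 and 1 with DMSO and 0 in both 4-PBA libraries, and Ppp1r3c (a glycogen-targeting subunit of protein phosphatase 1), with 0 or 4, did not. The samples were C2C12 cells, a mouse myoblast line with the genotype given as WT, that leaves the cell cycle and fuses into multinucleated myotubes when serum is changed. The day 0 group was not treated. The other groups spent 4 days in DMEM with 5% horse serum, 1 of them with the vehicle DMSO. The other received 4-phenylbutyric acid (4-PBA) at 1 mM, an aromatic fatty acid used as a chemical chaperone and known to inhibit histone deacetylases. Each group had 2 libraries, the day 4 groups had no untreated counterpart, and the line stands for muscle in culture without nerve, load or a second cell type.

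Glycolysis splits glucose into pyruvate, which skeletal muscle turns into lactate or sends to mitochondria through pyruvate dehydrogenase. Many steps are run by isoforms from separate genes, and adult muscle is known for its own set: the transporter Slc2a4, the phosphofructokinase Pfkm, the mutase Pgam2, the enolase Eno3 and the glycogen phosphorylase Pygm. Hk2 and Ldha are counted with the muscle set too, although growing cells of other kinds also make them. Glycogen is built by glycogen synthase and branching enzyme and taken apart by phosphorylase, which phosphorylase kinase switches on.

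Total counts per library ranged from 47908926 to 74697397, and the 40 genes took 1.09% of the counts in each day 0 library, 0.716% and 0.674% with DMSO, and 0.684% and 0.700% with 4-PBA. Levels are in CPM, counts scaled to library size with edgeR's TMM factors. The summed CPM of 8 myoblast and myotube markers lay at 1105 and 1111 at day 0, was higher with DMSO (6747 and 6986), and reached 6516 and 6622 with 4-PBA. That of 4 cell cycle markers was 1333 and 1358, 426 and 359.6, and 450 and 460.5 in the same order. The lists for other cell types summed to at most 0.165 CPM for adipocytes, 2.58 for endothelial cells, 6.11 for leukocytes, 1.97 for neurons and 0.0483 for hepatocytes. Both marker sums move with the groups, and their part in the results below was not tested. In bulk RNA, fewer cells of a type and less RNA per cell cannot be told apart.

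The comparison of DMSO with day 0 shows how these genes changed over 4 days in differentiation medium with the vehicle. The isoforms parted at some steps and not at others. Of 7 tested muscle isoforms 5 rose, from 1.12-fold for Eno3 to 71.0-fold for Pgam2. Of 11 tested isoforms of other tissues 8 fell, by up to 2.31-fold for Slc2a1. The muscle forms Hk2 and Ldha fell, Hk2 beside its partner Hk1, while Ldhb was not called. The 5 common enzymes, those with no separate muscle gene among these members, all fell, by 1.13-fold to 1.92-fold. Glycogen genes went both ways, with 6 of 11 higher and 4 lower. Over all 38 genes tested, 12 were higher and 21 lower with an adjusted p under 0.05 from edgeR's quasi-likelihood test, a share to be read against the 33.8% of all 17433 tested genes that were higher and the 32.6% that were lower. The median log2 fold change was -0.26 over these genes and 0.02 over all genes tested. A change of at least 2-fold was met by 7 of the 38 upwards (13.2% of all genes) and by 3 downwards (8.78%).

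**Figure D1:**
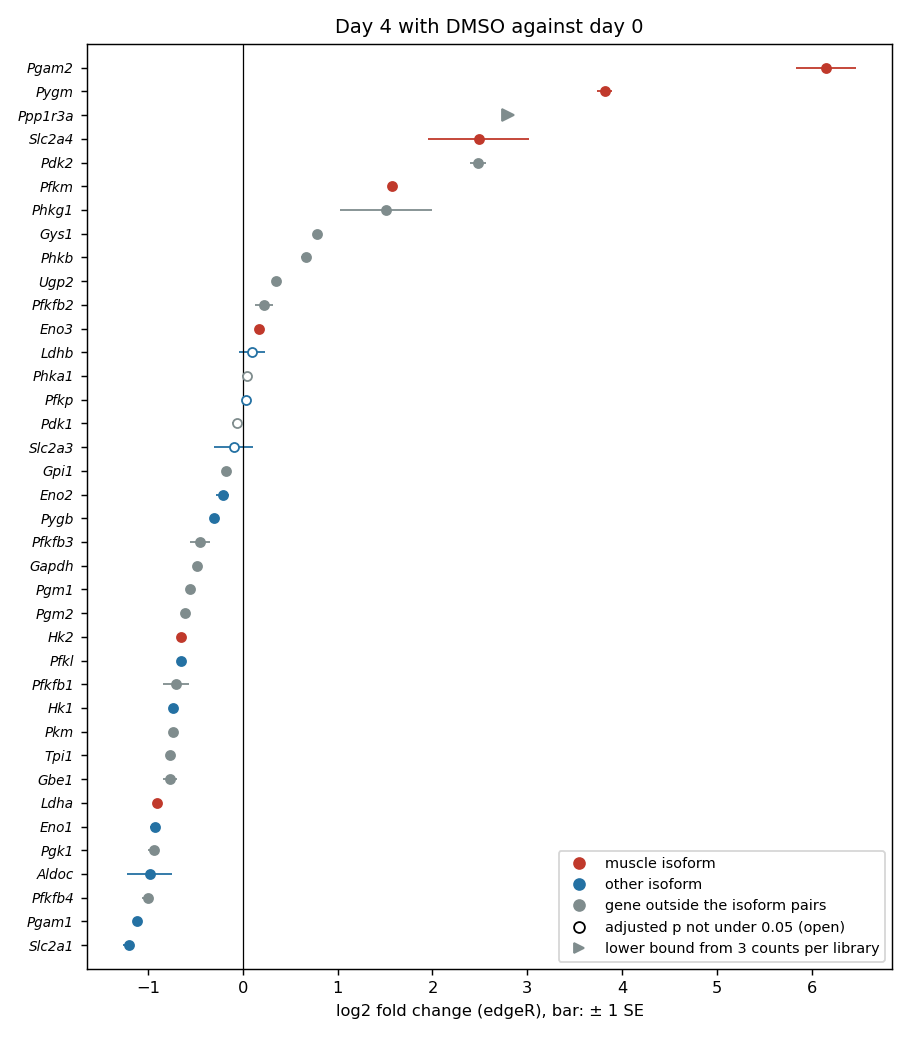
Each tested gene's log2 fold change between day 4 with DMSO and day 0 (x axis), with bars of 1 SE and open circles for an adjusted p not under 0.05. Red points (muscle isoforms) lead the upper end with Pgam2 at 6.15 and Pygm at 3.82, blue points (other isoforms) lie at 0.10 or below, and the triangle is the lower bound for Ppp1r3a, which had no counts at day 0. The bound takes the day 4 mean as observed.

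At the first step, glucose uptake, the broadly expressed transporter Slc2a1 had 269 and 272 CPM at day 0, 126 and 109 in DMSO, and 103 and 104 in 4-PBA. Its groups do not overlap, and it fell by 1.21 on the log2 scale with DMSO (SE 0.0559, adjusted p = 3.12e-09, edgeR). Slc2a4, the insulin-responsive transporter of muscle and fat, had 0.123 and 0.0855 CPM at day 0, 0.507 and 0.647 in DMSO, and 0.805 and 0.483 in 4-PBA. It rose 5.60-fold with DMSO (adjusted p = 1.08e-04, edgeR), from 6 counts in each day 0 library, and stayed a rare transcript at 0.229 CPM per kb of its principal transcript against 36.0 for Slc2a1. Slc2a3, the neuronal transporter, had 1.87 and 1.99 CPM at day 0, 1.87 and 1.75 in DMSO, and 2.25 and 2.27 in 4-PBA, and was not called.

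Hexokinase traps glucose in the cell as glucose 6-phosphate, and both of its measured forms fell. Hk1, the form of most tissues, had 339 and 346 CPM at day 0, 210 and 201 in DMSO, and 208 and 213 in 4-PBA. Hk2, the form of muscle and of many growing cells, had 152 and 157, 98.3 and 98.9, and 79.1 and 83.8 CPM in the same order. The fall with DMSO was 0.73 on the log2 scale for Hk1 (SE 0.0317, adjusted p = 7.07e-21) and 0.65 for Hk2 (SE 0.0371, adjusted p = 2.42e-17, edgeR). Hk2 held 24.0% ± 0.209 of the pair at day 0 and 25.1% ± 0.645 with DMSO (SD, n = 2), counted per length of the principal transcript, so the make-up of this step moved little while its level dropped.

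Phosphofructokinase commits the sugar to glycolysis, and here the muscle and liver forms moved in opposite directions. Pfkm had 48.5 and 48.9 CPM at day 0, 145 and 146 in DMSO, and 127 and 134 in 4-PBA. Pfkl, the liver form, had 260.1 and 259.8, 176 and 155, and 170 and 176 CPM. The 3 groups of Pfkm are apart from each other, and those of Pfkl at day 4 overlap. Pfkm rose 2.98-fold with DMSO (log2 1.58, SE 0.0387, adjusted p = 3.80e-28, edgeR), and Pfkl fell by 0.65 on the log2 scale (SE 0.0453, adjusted p = 1.52e-09). Pfkp, the platelet form, had 170.2 and 168.9 CPM at day 0, 175 and 171 in DMSO, and 178 and 177 in 4-PBA, and was not called. Per length of the principal transcript, Pfkm went from 13.3% ± 0.0962 of the 3 forms to 37.0% ± 1.34 with DMSO and 33.7% ± 0.660 with 4-PBA (SD, n = 2). With all exons of each gene as the length, the shares were 22.0%, 53.6% and 49.99%, so the share depends on the length used while its order over the groups does not.

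Of the bifunctional Pfkfb enzymes, which set the level of the phosphofructokinase activator fructose 2,6-bisphosphate, 3 of 4 fell. Pfkfb4 fell by 1.01, Pfkfb1 by 0.71 and Pfkfb3 by 0.45 on the log2 scale, and Pfkfb2, the heart form, rose by 0.22 (adjusted p = 0.0301). The call for Pfkfb2 was lost with the DESeq2 Wald test (adjusted p = 0.085), with library size only (0.0571), and without day 0 replicate 1 or 2 or DMSO replicate 2 (0.124, 0.0786 and 0.173), and its exons overlap genes on both strands. In the aldolase step that follows, Aldoc, the brain form, had 2.06 and 2.26 CPM at day 0, 0.856 and 1.32 in DMSO, and 1.45 and 1.42 in 4-PBA, a fall with DMSO of 0.98 on the log2 scale (SE 0.238, adjusted p = 4.79e-04, edgeR).

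Tpi1, Gapdh, Pgk1, Pkm and Gpi1, the common enzymes with no separate muscle gene among these members, fell together. The decrease with DMSO was 0.94 on the log2 scale for phosphoglycerate kinase (Pgk1), 0.76 for triosephosphate isomerase (Tpi1), 0.74 for pyruvate kinase (Pkm), 0.48 for Gapdh and 0.18 for glucose 6-phosphate isomerase (Gpi1), with adjusted p-values from 3.66e-21 to 2.45e-05. Pkm was the most abundant of the tested members in all 3 groups, at 1280.4 CPM per kb of principal transcript at day 0, 769 with DMSO and 760 with 4-PBA. A gene-level count does not separate its splice forms. Gapdh, at 256 CPM per kb at day 0, lay below Pgk1 at 682, but it has 55 near-identical copies in the GENCODE M21 transcripts, and how the authors treated reads that match several places is not given in the sources used here.

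The mutase step gave the widest split between 2 isoforms. Pgam1, the form of most tissues, had 857 and 851 CPM at day 0, 406 and 380 in DMSO, and 413 and 410 in 4-PBA. Pgam2, the muscle form, had 0 and 0.242 CPM at day 0 (0 and 17 counts), 10.24 and 10.26 in DMSO, and 7.99 and 8.57 in 4-PBA. No group of Pgam2 overlaps another. It rose 71.0-fold with DMSO (log2 6.15, SE 0.315, adjusted p = 2.15e-10, edgeR), a size that rests on 1 day 0 library: it was 5.39 on the log2 scale without replicate 1, and without replicate 2 day 0 is at 0 counts, where the fitted 12.3 depends on the prior count. Pgam1 fell by 1.12 (SE 0.0305, adjusted p = 7.95e-27). Even so, Pgam1 stayed the main form at day 4, with Pgam2 at 5.23% ± 0.232 of the pair per length with DMSO and 4.08% ± 0.214 with 4-PBA (SD, n = 2).

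**Figure D2:**
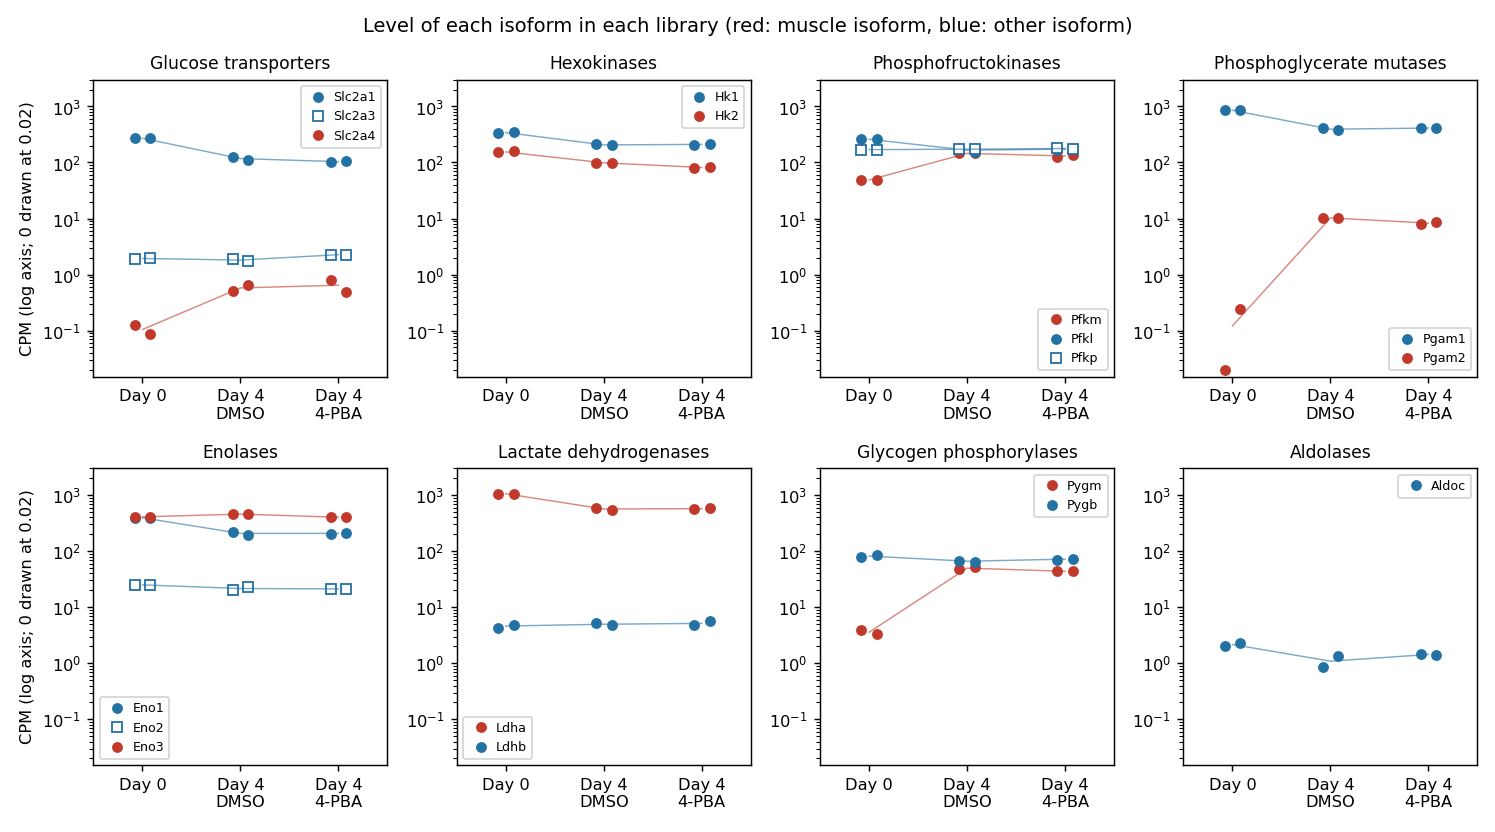
CPM of each isoform (log axis, with 0 drawn at 0.02) in the 2 libraries of each group; lines join group means, red is the muscle isoform and blue the others. Pgam2, Pygm, Pfkm and Slc2a4 climb from day 0 to day 4, Eno3 stays near its day 0 level, and Hk2 and Ldha fall beside the isoforms of other tissues.

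The sequences before the transcription starts are shown for the 4 steps where a muscle isoform rose and an isoform of other tissues fell and both have a window: this pair, Pygm and Pygb, Pfkm and Pfkl, and Eno3 and Eno1. For Pfkm and Eno1, which have 4 and 3 windows, the most upstream one is printed. They are the 250 bases upstream of the start from RefSeq on GRCm38.p6, 5′ to 3′ on the gene's strand. Capitals mark CANNTG, the E-box letters that myogenic factors such as Myod1 bind, and the AT-rich MEF2 motif, searched on both strands. The windows are chr11:5803797-5804046 on the minus strand for Pgam2, chr19:41911621-41911870 on the plus strand for Pgam1, chr19:6384158-6384407 on the plus strand for Pygm, chr2:150786546-150786795 on the plus strand for Pygb, chr15:98092339-98092588 on the plus strand for Pfkm, chr10:78009808-78010057 on the minus strand for Pfkl, chr11:70656926-70657175 on the plus strand for Eno3 and chr4:150236458-150236707 on the plus strand for Eno1.
Pgam2: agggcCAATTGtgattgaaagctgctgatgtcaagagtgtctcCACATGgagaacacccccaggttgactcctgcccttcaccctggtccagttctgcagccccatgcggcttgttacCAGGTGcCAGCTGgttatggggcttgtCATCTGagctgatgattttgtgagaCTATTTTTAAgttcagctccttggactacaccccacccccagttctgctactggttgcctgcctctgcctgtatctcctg
Pgam1: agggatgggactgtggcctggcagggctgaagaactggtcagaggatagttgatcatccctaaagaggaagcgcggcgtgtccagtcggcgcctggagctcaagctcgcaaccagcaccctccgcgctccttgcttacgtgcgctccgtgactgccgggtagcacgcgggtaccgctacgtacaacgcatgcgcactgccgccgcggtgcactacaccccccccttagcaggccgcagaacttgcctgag
Pygm: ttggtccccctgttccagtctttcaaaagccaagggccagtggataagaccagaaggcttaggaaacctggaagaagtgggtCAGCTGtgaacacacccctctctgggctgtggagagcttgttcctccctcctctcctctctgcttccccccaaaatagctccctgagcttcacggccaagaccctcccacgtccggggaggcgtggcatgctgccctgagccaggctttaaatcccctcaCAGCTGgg
Pygb: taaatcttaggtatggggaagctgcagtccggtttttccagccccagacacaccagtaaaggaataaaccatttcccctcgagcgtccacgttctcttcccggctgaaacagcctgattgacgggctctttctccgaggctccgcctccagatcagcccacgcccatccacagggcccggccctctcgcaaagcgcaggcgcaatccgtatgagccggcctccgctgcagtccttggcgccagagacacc
Pfkm: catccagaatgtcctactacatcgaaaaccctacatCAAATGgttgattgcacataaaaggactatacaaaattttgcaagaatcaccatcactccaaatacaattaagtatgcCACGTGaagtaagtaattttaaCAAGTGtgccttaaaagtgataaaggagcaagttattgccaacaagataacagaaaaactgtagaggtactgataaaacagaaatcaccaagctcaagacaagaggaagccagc
Pfkl: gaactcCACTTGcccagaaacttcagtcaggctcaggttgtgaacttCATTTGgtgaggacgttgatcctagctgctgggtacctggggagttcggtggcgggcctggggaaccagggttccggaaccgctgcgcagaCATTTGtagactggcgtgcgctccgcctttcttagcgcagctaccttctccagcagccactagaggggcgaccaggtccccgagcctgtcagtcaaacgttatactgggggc
Eno3: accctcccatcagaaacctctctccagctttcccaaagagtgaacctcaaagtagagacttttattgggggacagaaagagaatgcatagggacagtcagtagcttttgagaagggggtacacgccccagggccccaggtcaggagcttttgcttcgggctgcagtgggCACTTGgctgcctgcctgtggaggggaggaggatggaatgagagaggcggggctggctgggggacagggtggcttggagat
Eno1: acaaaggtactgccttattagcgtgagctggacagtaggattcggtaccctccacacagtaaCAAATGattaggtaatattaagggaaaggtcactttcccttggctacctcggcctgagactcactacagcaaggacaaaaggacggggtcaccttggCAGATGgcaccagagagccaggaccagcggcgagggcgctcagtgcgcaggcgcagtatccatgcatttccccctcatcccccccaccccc
Pgam2 has 5 E-box matches and 1 MEF2 match in its window, and Pgam1 has none of either. Pygm has 2 E-box matches, both CAGCTG, a form of CANNTG that Myod1 is known to bind and that Pgam2 holds once, and Pygb has none. Pfkm and Pfkl have 3 each in the windows shown, and the other windows of Pfkm have 0, 1 and 1. Eno3 has 1 and Eno1 has 2, with 0 in its other windows, so matches were found on both sides of these 2 steps. Among 32851 windows of this length, 66.2% hold CANNTG, 13% hold CAGCTG and 2.92% hold the MEF2 motif, so an E-box match alone is common. Of the 7 tested muscle isoform genes 6 have a window (all but Slc2a4), and 5 of these, all but Hk2, had CANNTG in at least 1 window and 2 had CAGCTG. Of the 11 tested other isoform genes 10 have a window (all but Slc2a3), with 4 and 0 for the same letters; some genes have several windows. CACGTG, another form of CANNTG, was found in 2 of the 6 and 0 of the 10 genes (6.02% of all windows), and ACGTG, the core of the hypoxia response element, which overlaps CACGTG, in 4 and 3 genes (16.6% of all windows). These are matches of letters, not sites shown to be bound.

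Enolase makes phosphoenolpyruvate. Eno3, the muscle form, was already abundant at day 0, at 262 CPM per kb of principal transcript against 194 for Eno1, the form of most tissues. Eno3 had 407 and 412 CPM at day 0, then 464 and 454 with DMSO, and 402.9 and 404.3 with 4-PBA. Eno1 had 396.2 and 392.3 CPM at day 0, 221 and 194 in DMSO, and 205 and 211 in 4-PBA. Both DMSO libraries of Eno3 lie above all others, whereas Eno1 was lower in every day 4 library than at day 0. With DMSO Eno3 rose by 0.17 on the log2 scale (SE 0.0289, adjusted p = 5.59e-06, edgeR), Eno1 fell by 0.93 (SE 0.0514, adjusted p = 1.70e-08), and Eno2, the neuronal form, fell by 0.21 (adjusted p = 0.00596). Eno2 had 24.9 and 25.1 CPM at day 0, 20.6 and 22.6 in DMSO, and 21.1 and 21.3 in 4-PBA; its call was lost without DMSO replicate 1 (-0.15, adjusted p = 0.0947). Eno3 went from 56.3% ± 0.403 of the family per length of the principal transcript to 72.8% ± 1.35 and, with 4-PBA, 70.1% ± 0.327 (SD, n = 2). With all exons as the length the values were 74.97%, 86.0% and 84.3%. Eno1b, a copy 99.5% identical to Eno1 over 1736 bases, held 106.5% to 117.2% of the counts of Eno1, so the count of either alone is uncertain. It fell by 1.02 on the log2 scale with DMSO (SE 0.0375, adjusted p = 3.44e-17). With Eno1b in the family, Eno3 held 36.2% ± 0.318 per length of the principal transcript at day 0, 55.4% ± 1.58 with DMSO and 52.4% ± 0.269 with 4-PBA (SD, n = 2). Its share of counts was then 31.8%, 50.2% and 47.1%, and with all exons as the length 58.9%, 75.6% and 73.3%. The level of the share thus depends on the length and on Eno1b, and on each of these bases it was lowest at day 0 and highest with DMSO.

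Lactate dehydrogenase closes the path in muscle. Ldha, the muscle form, had 1053 and 1067 CPM at day 0, 591 and 542 in DMSO, and 564 and 585 in 4-PBA, a fall with DMSO of 0.91 on the log2 scale (SE 0.0333, adjusted p = 8.09e-19, edgeR). Ldhb, the heart form, had 4.32 and 4.90 CPM at day 0, 5.15 and 4.79 in DMSO, and 4.72 and 5.57 in 4-PBA; its groups overlap and it was not called. Ldha held 99.4% of the pair per length at day 0 and 98.8% in both day 4 groups. Past this branch, Pdk2, a kinase that shuts pyruvate dehydrogenase, had 5.64 and 5.19 CPM at day 0, 27.7 and 32.3 in DMSO, and 27.1 and 29.0 in 4-PBA. It rose 5.58-fold with DMSO (log2 2.48, SE 0.0869, adjusted p = 1.28e-22), while Pdk1, the kinase linked to low oxygen, lay between 46.5 and 53.2 CPM and was not called. Pdk3 and Pdk4, kinases of the same family from a list read for context below, went the other way. They fell by 0.296 and 0.997 on the log2 scale with DMSO (adjusted p = 2.29e-04 and 3.65e-16, edgeR). The mean of Pdk4 was 38.4 CPM at day 0, 19.3 in DMSO and 20.6 in 4-PBA, so these kinases did not move together.

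On the glycogen side, the muscle phosphorylase Pygm, the enzyme missing in McArdle disease, had 3.85 and 3.30 CPM at day 0, 47.4 and 52.3 in DMSO, and 43.9 and 43.4 in 4-PBA. Pygb, the brain form, had 79.5 and 84.0, 67.4 and 65.1, and 71.0 and 73.2 CPM. Every day 4 library of Pygm lies above both day 0 libraries, and every day 4 library of Pygb lies below. With DMSO Pygm rose 14.1-fold (log2 3.82, SE 0.0790, adjusted p = 2.49e-30, edgeR) and Pygb fell by 0.31 (SE 0.0427, adjusted p = 1.01e-07). Pygm thereby went from 5.63% ± 0.774 of the family per length of the principal transcript to 50.5% ± 2.32 with DMSO and 45.2% ± 0.721 with 4-PBA (SD, n = 2), and from 6.15% to 52.9% and 47.5% with all exons as the length.

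**Figure D3:**
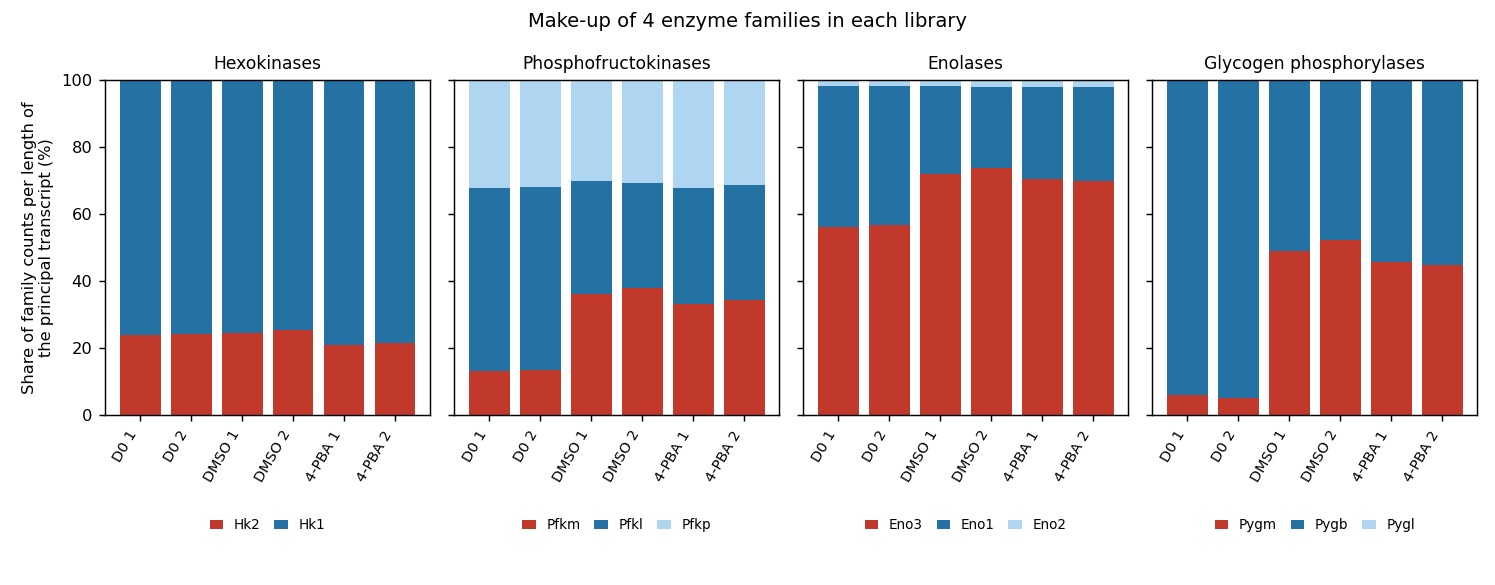
Make-up of 4 enzyme families in each library, as the share of counts per length of the principal transcript (y axis, percent); red is the muscle isoform. The red share is 13.2% to 13.3% at day 0 and 33.3% to 37.9% at day 4 for Pfkm, 5.08% to 6.17% and 44.7% to 52.2% for Pygm, and 21.0% to 25.5% throughout for Hk2; Eno1b is left out of the enolase bars.

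The gene of the muscle glycogen-targeting phosphatase subunit, Ppp1r3a, had 0 counts in both day 0 libraries, 22 and 28 with DMSO, and 24 and 30 with 4-PBA. Against a floor of 3 counts per library at day 0 it was at least 6.95-fold higher with DMSO and at least 8.33-fold higher with 4-PBA. These bounds take the day 4 means as observed and allow for no counting error there. Gys1, muscle glycogen synthase, rose by 0.78 on the log2 scale with DMSO (SE 0.0393, adjusted p = 6.74e-19), and Ugp2, which makes its substrate UDP-glucose, by 0.35. The branching enzyme Gbe1 fell by 0.77, and the phosphoglucomutases Pgm1 and Pgm2 by 0.56 and 0.61. These symbols have been exchanged between mouse nomenclature releases, and the release behind the table is not given in the sources used here, so which of the genes each value and length belongs to is uncertain. The subunits of phosphorylase kinase did not move as a block. The beta subunit Phkb rose by 0.66, and the muscle catalytic subunit Phkg1 by 1.51 from 10 and 13 counts (adjusted p = 0.00689, edgeR). Phkg1 stayed rare, at a mean of 0.558 CPM with DMSO. Near-identical copies had counts of 0% to 39.1% of its own across the libraries, and its exons overlap Sumf2 on the opposite strand. The muscle alpha subunit Phka1 lay between 33.3 and 36.1 CPM and was not called. Its paralog Phka2, the liver alpha subunit and no member of the 41, rose by 1.01; it was singled out after its values were seen.

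The comparison of 4-PBA with DMSO asks what the drug changed at day 4, with both groups equally long in differentiation medium. Changes were small, and those called were all in muscle isoforms. Hk2, Eno3, Pfkm and Pygm fell, by 1.11-fold to 1.21-fold, and no other of the 38 genes was called. From day 0 to day 4 with DMSO, Hk2 had fallen too, whereas Eno3, Pfkm and Pygm had risen. The isoform classes were chosen with earlier results of these data known. Of the 7 muscle isoforms 2, Slc2a4 and Ldha, had log2 differences above 0 (0.15 and 0.02). Of all genes tested, 4.9% were called, 2.13% higher and 2.78% lower. Against those 4 lower members stood 0 higher by edgeR, with 2 higher and 6 lower at an unadjusted p under 0.05 (16.7% of all genes in either direction). DESeq2 called 0 higher and 3 lower, and limma-voom 0 and 4. The median log2 fold change was -0.19 over the 7 muscle isoforms, 0.05 over the 11 other isoforms, 0.01 over all 38 genes and 0.00205 over all genes tested. The other isoforms had 0 calls by edgeR, DESeq2 or limma-voom, with 2 higher and 1 lower at an unadjusted p under 0.05, and the 5 common enzymes had 0 calls by these tools and 0 at an unadjusted p under 0.05 by edgeR. Both 4-PBA libraries lay above both DMSO libraries for 6 of the 38 genes and below for 7, against 23% and 22.5% of all genes.

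**Figure D4:**
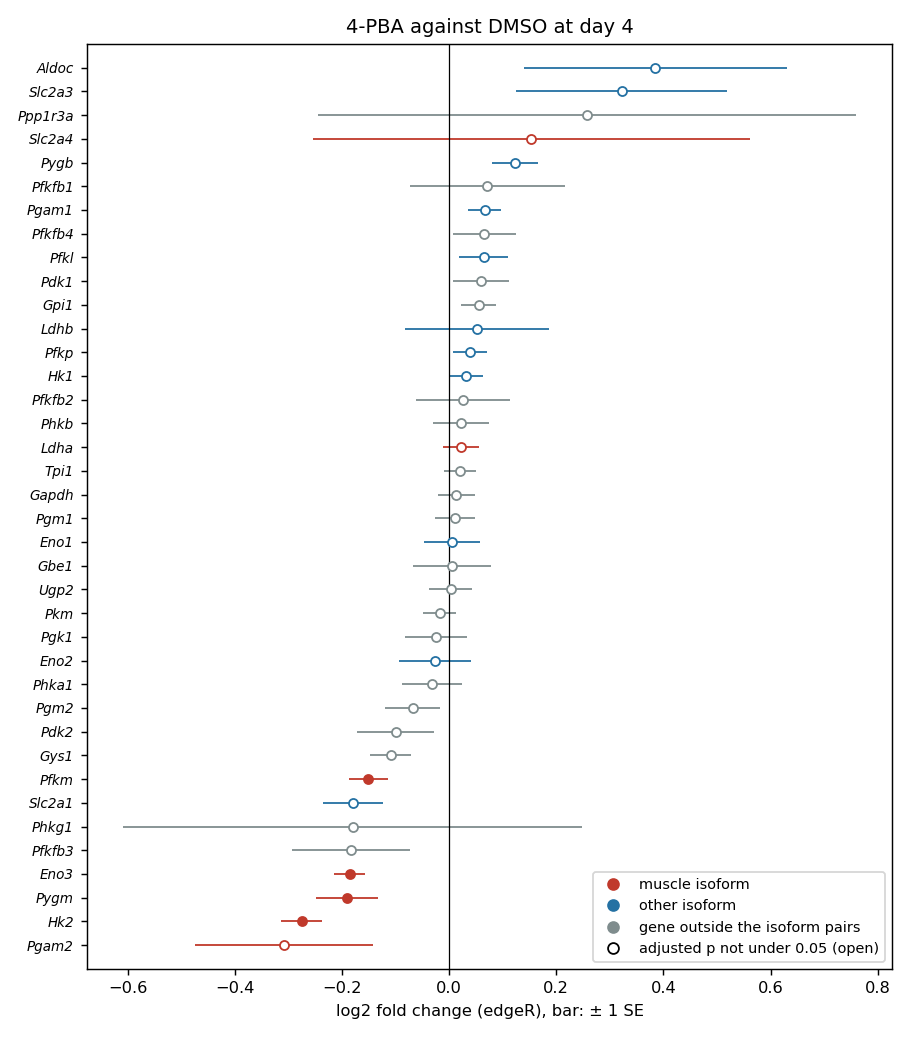
Log2 fold change between 4-PBA and DMSO at day 4 (x axis) for the 38 tested genes, with bars of 1 SE; filled points have an adjusted p under 0.05. The filled points are the muscle isoforms Hk2, Pygm, Eno3 and Pfkm, from -0.28 to -0.15, and Pgam2, lowest at -0.31, has a wide bar and is open.

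Hk2 had the smallest adjusted p, with both 4-PBA libraries (79.1 and 83.8 CPM) under both DMSO libraries (98.3 and 98.9), a fall of 0.28 on the log2 scale (SE 0.0379, adjusted p = 1.04e-05, edgeR). Its partner Hk1 differed by 0.03 (SE 0.0318, adjusted p = 0.705), and the share of Hk2 went from 25.1% to 21.3% per length. For Eno3 the fall was 0.19 (SE 0.0289, adjusted p = 6.48e-05), and its 4-PBA level differed from day 0 by -0.02 (SE 0.0289, adjusted p = 0.544), in a comparison that shares the 4-PBA libraries. Hk2 and Eno3 were called with each library left out in turn. Pfkm fell by 0.15 (SE 0.0363, adjusted p = 0.00902), and without 4-PBA replicate 1 the value was -0.11 and no longer called (adjusted p = 0.295). Pygm fell by 0.19 (SE 0.0578, adjusted p = 0.0474), a call that was lost with the DESeq2 Wald test (adjusted p = 0.117), the size factors of DESeq2 in edgeR (0.0526) or no scaling beyond library size (0.065). It was also lost without 4-PBA replicate 1 or 2, day 0 replicate 1 or DMSO replicate 2, and leaving out each library gave -0.26 to -0.12.

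Among the genes not called, Pgam2 had a log2 difference of -0.31 (SE 0.166, adjusted p = 0.398, edgeR), with its 4-PBA libraries under its DMSO libraries. The value was -0.11 for Gys1 (adjusted p = 0.0970) and 0.12 for Pygb (adjusted p = 0.0957). Slc2a1, at 126 and 109 CPM with DMSO and 103 and 104 with 4-PBA, had -0.18 (adjusted p = 0.116); it was called without DMSO replicate 2 (-0.28, adjusted p = 1.7e-09) and with no filter on low counts (adjusted p = 5.4e-05). Pgam1, Pfkl and Ldha differed by 0.07, 0.06 and 0.02, and Slc2a4 and Ldhb by 0.15 and 0.05, with SEs of 0.408 and 0.134 for the last pair.

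The log2 ratio of the muscle isoform's counts to those of its partners puts both directions in 1 number, given here without a test for 2 libraries against 2. For phosphofructokinase it was -3.14 ± 0.0122 at day 0, -1.22 ± 0.0804 with DMSO and -1.42 ± 0.0437 with 4-PBA (SD, n = 2). For glycogen phosphorylase it was -4.52 ± 0.211, -0.41 ± 0.134 and -0.72 ± 0.0420. The 4-PBA libraries lie on the day 0 side of the DMSO libraries in both families, and the difference between the drug groups is small beside the change from day 0. For hexokinase the ratio was -1.15 ± 0.0165, -1.06 ± 0.0495 and -1.37 ± 0.0318, which places 4-PBA below day 0. For enolase it was -0.03 ± 0.0233, 1.01 ± 0.0926 and 0.82 ± 0.0220, or -1.10, 0.01 and -0.16 with Eno1b among the partners. The mutases gave -5.26 ± 0.0677 with DMSO and -5.64 ± 0.0789 with 4-PBA, against -11.8 in the single day 0 library with Pgam2 counts. The transporter ratio was -11.4 ± 0.387, -7.70 ± 0.399 and -7.41 ± 0.541 in the order of the other families. The lactate dehydrogenases went the other way from day 0, from 7.85 ± 0.115 to 6.83 ± 0.0134 with DMSO and 6.81 ± 0.132 with 4-PBA, a fall of 1.02 with DMSO beside a rise of 1.04 for enolase. In the transporters and lactate dehydrogenases the DMSO and 4-PBA libraries overlap.

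Other measures moved beside these small changes. Of the 8 myoblast and myotube markers, 3 were called lower with 4-PBA and 0 higher, against 2.78% and 2.13% of all genes. Des, Mymk and Acta1 were 1.08-fold, 1.12-fold and 1.07-fold lower (adjusted p = 0.00881, 0.0134 and 0.0451, edgeR). Ckm and Myod1, at -0.17 and -0.05 on the log2 scale, were not called. Myf5, Myog and Myh3, at 0.06, 0.01 and 0.02, were not called either. The 4 cell cycle markers had 0 calls by edgeR, DESeq2 or limma-voom, with 3 higher at an unadjusted p under 0.05. Replicates of a group also differed from each other. With DMSO all 5 common enzymes were higher in replicate 1 than in replicate 2. The median was 0.11 on the log2 scale (0.06 to 0.18), against 0.00490 over all genes. With 4-PBA 0 of the 5 were higher in replicate 1. The median was -0.04 (-0.12 to -0.02), against 3e-04 over all genes. Without DMSO replicate 1, 6 of the 38 genes were called higher with 4-PBA (Eno1, Gpi1, Ldha, Pfkl, Pgam1 and Pygb) and Gys1 joined those called lower; without DMSO replicate 2, Pgk1 and Slc2a1 were called lower and Pygm was not. What part these differences have in the values for Hk2, Eno3, Pfkm and Pygm was not tested.

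Against day 0, the 4-PBA group had 11 of the 38 genes higher and 21 lower (33.2% and 32.4% of all genes), with the day 0 libraries shared with the comparison above. Side by side, the log2 change from day 0 with DMSO and with 4-PBA was 1.58 and 1.43 for Pfkm, 3.82 and 3.63 for Pygm, 6.15 and 5.84 for Pgam2, 0.78 and 0.67 for Gys1, and 2.48 and 2.38 for Pdk2. For Hk2 the falls were 0.65 and 0.92, and for Slc2a1 1.21 and 1.39.

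Further genes of the same pathways, from lists that hold none of the 41, were read for context. Of 15 tested paralogs of these families, 6 rose and 3 fell with DMSO, and 0 rose and 3 fell with 4-PBA against DMSO. Over all genes the shares were 33.8% and 32.6% with DMSO and 2.13% and 2.78% with 4-PBA. Pgm5, a phosphoglucomutase relative known from muscle cell adhesion sites, had 0.864 and 0.883 CPM at day 0, 45.3 and 52.2 in DMSO, and 39.3 and 37.6 in 4-PBA. It rose by 5.80 on the log2 scale with DMSO (SE 0.105, adjusted p = 8.15e-31, edgeR) and fell by 0.34 with 4-PBA (SE 0.0618, adjusted p = 4.74e-04). The transporter Slc2a6 fell by 0.37 with 4-PBA (adjusted p = 0.00245) after a rise of 4.04, and Phka2 by 0.18 (adjusted p = 0.0122). With DMSO the smallest adjusted p among those that fell belonged to Eno1b, given above, and to Ppp1r3b, a glycogen-targeting phosphatase subunit, which fell by 1.18 (adjusted p = 4.70e-06).

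Among 15 regulators of sugar use, 6 rose and 7 fell with DMSO, to be read, like the next lists, against 33.8% and 32.6% of all genes. Prkag3, the skeletal muscle gamma subunit of AMP-activated kinase, rose by 5.51 on the log2 scale (SE 0.108, adjusted p = 5.29e-31, edgeR), and Tbc1d1, an AMP-activated kinase and Akt substrate, by 0.92 (adjusted p = 3.67e-23). The pentose phosphate enzymes Pgd and G6pdx fell by 1.13 and 1.56 (adjusted p = 1.39e-25 and 3.43e-25). With 4-PBA 0 rose and 1 fell, Tbc1d4, the Akt substrate that holds Slc2a4 inside the cell, by 0.31 (adjusted p = 0.0119). Of 19 genes of pyruvate and lactate handling, 4 rose and 8 fell with DMSO. Pdp1, a phosphatase that switches pyruvate dehydrogenase on, rose by 1.02 and the dehydrogenase subunit Pdha1 by 0.25 (adjusted p = 9.23e-16 and 9.38e-09). Pdp2, the other such phosphatase in the list, fell by 1.03, and the subunit Dlat by 0.19 (adjusted p = 5.09e-09 and 6.03e-05, edgeR). Gpd2, the mitochondrial arm of the glycerol phosphate shuttle, fell by 1.54 and the lactate transporter Slc16a1 by 0.79 (adjusted p = 1.76e-27 and 2.04e-20). Of 11 further glycogen genes, 7 rose and 3 fell. The glycogen synthase kinase Gsk3b rose by 0.48 (adjusted p = 5.40e-15), whereas its paralog Gsk3a fell by 0.23 (adjusted p = 1.05e-05, edgeR). Of the catalytic subunits of protein phosphatase 1, Ppp1cc and Ppp1ca fell by 0.54 and 0.46 (adjusted p = 3.38e-17 and 3.52e-16). The subunit Ppp1cb went the other way and rose by 0.27 (adjusted p = 9.08e-09, edgeR). In the lists of pyruvate and lactate handling and of further glycogen genes, edgeR, DESeq2 and limma-voom made 0 calls between 4-PBA and DMSO, with 1 higher and 1 lower, and 1 higher and 0 lower, at an unadjusted p under 0.05.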

How the data were processed

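RNA sequencing counts from 6 C2C12 libraries were analysed. RNA was DNase-treated and sequenced from directional libraries, per the labels' protocols. The authors deposited raw counts for each gene symbol, with no normalisation and 1 column per library; the submitters' processing notes name the build GRCm39, and the aligner, counter, annotation and use of strand are not given in the sources used here. The labels put all libraries in batch 1 and do not call replicates separate cultures, so p-values measure a spread between libraries that may be technical.

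Counts were fitted with edgeR 4.0.16 in R 4.3.3 (filterByExpr, TMM, 1 model over all 6 libraries, robust quasi-likelihood F test). Benjamini-Hochberg adjustment ran over all 17433 tested genes, and genes under 0.05 were called. The SE is the log2 fold change divided by the square root of F. The fit had 3 residual degrees of freedom and a common biological coefficient of variation of 3.74%. A median of 30.4 prior degrees of freedom came from the spread of other genes, on which the small p-values largely rest. Replicates differed by more than sampling noise (chi-square per degree of freedom 3.77, 6.64 and 5.34 for day 0, DMSO and 4-PBA). A floor of 3 counts per library is 0.0404 to 0.0617 CPM, for counting error only.

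Isoform shares divide counts by exon length; lengths, overlaps and near-identical copies (at least 97% over 150 bases, blastn 2.17.0) came from GENCODE M21, a GRCm38 annotation matched by symbol. It gave 10 members with a copy, 13 whose exons overlap an opposite-strand gene and 3 (Pfkm, Pfkfb2 and Pkm) a same-strand gene, whose counts are uncertain. The length of the principal transcript and the enolase shares with Eno1b were added after seeing the data. Promoter windows came from RefSeq GRCm38.p6 for 39 of the 41 symbols (59 windows).

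Members, isoform classes, marker lists and pathway lists were chosen with earlier results of these data known. Pdk3, Pdk4, Pdp2, Dlat, Gsk3a and Ppp1cb were named after their values were seen, because they went against related genes named here. Values in every library are given for families with a muscle and another isoform and for other members called between 4-PBA and DMSO or changed at least 4-fold between DMSO and day 0; of each pathway list, the 2 called genes with the smallest adjusted p in each direction are named for DMSO against day 0 and for 4-PBA against DMSO, except 1 that is not reported here. Alternatives were DESeq2 1.42.0 (size factors, Wald test), library size only, limma-voom (limma 3.58.1), 2 other filters, only the 4 libraries compared, a replicate block, stricter calls and leaving out each library. Figures used Python 3.11.15 and matplotlib 3.10.9. The scripts were tested on simulated data.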

Additional observations from a re-analysis of the deposited data

How the results depend on the processing

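Of the single-gene values under the alternatives for DMSO against day 0, 519 kept direction and side of the threshold, 6 lost the call, 1 gained it and 3 changed sign; the numbers were 506, 9, 4 and 10 for 4-PBA against day 0, and 476, 9, 10 and 34 for 4-PBA against DMSO. An added minimum of 2-fold took members called higher from 12 to 7 with DMSO and from 11 to 7 with 4-PBA against day 0, members called lower from 21 to 3 and from 21 to 2, and members called lower with 4-PBA against DMSO from 4 to 0. Deviations of same-numbered libraries had correlations of -0.0279 (day 0 and DMSO), -0.00306 (day 0 and 4-PBA) and -0.0116 (DMSO and 4-PBA). All tested genes had equal weight there, low counts included, so these values cannot show whether replicate numbers marked a shared culture or day. With a replicate block 3 members in place of 4 were called lower with 4-PBA against DMSO. Pygm was the one lost (adjusted p = 0.0718, edgeR), and over all genes the block gave 768 calls for 855.

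Leaving out each library in turn gave 0 to 6 members called higher and 2 to 5 called lower between 4-PBA and DMSO. The median of the other isoforms was -0.713 to -0.562 for DMSO against day 0, -0.588 to -0.518 for 4-PBA against day 0 and 0.021 to 0.104 for 4-PBA against DMSO. With library size only these medians were -0.679 and, against day 0 with 4-PBA, -0.605; with DESeq2 size factors the latter was -0.592. Values near 0 changed sign. Pdk1 between 4-PBA and day 0 was -0.00601 with DESeq2 size factors, -0.00607 with the Wald test, -0.0183 with library size only, -8e-04 with limma-voom and -0.00304 with the block. With library size only, Phka1 was -0.007 between 4-PBA and day 0 and Pfkp -0.000309 between DMSO and day 0. With 1 library left out, log2 fold changes that changed sign ranged as follows: for DMSO against day 0, Pdk1 -0.139 to 0.0175 and Phka1 -8.84e-05 to 0.0835. For 4-PBA against day 0, Pdk1 -0.0492 to 0.0532 and Phka1 -0.0293 to 0.0565. For 4-PBA against DMSO, Eno1 -0.0878 to 0.104, Eno2 -0.0921 to 0.0454, Gapdh -0.0458 to 0.0711, Gbe1 -0.0319 to 0.0412, Gpi1 -0.00834 to 0.121, Ldha -0.0385 to 0.0844, Ldhb -0.072 to 0.168, Pdk1 -0.0173 to 0.139, Pdk2 -0.207 to 0.0207, Pfkfb1 -0.117 to 0.275, Pfkfb2 -0.0163 to 0.0719, Pfkl -0.0235 to 0.157, Pgk1 -0.112 to 0.0681, Pgm1 -0.00317 to 0.0257, Pgm2 -0.139 to 0.0029, Phka1 -0.077 to 0.0131, Phkb -0.0148 to 0.0609, Phkg1 -0.585 to 0.137, Pkm -0.0694 to 0.0357, Slc2a4 -0.26 to 0.475, Tpi1 -0.0273 to 0.0688 and Ugp2 -0.0683 to 0.0793. The cause was not tested.

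Over all genes, calls between 4-PBA and DMSO were 341 and 295 without 4-PBA replicate 1 and 2, 424 at an adjusted p under 0.01 and 12 with a 2-fold minimum, against 855; library size only moved the higher share of calls from 43.39% to 51.45%. Slc2a4, Phkg1, Ppp1r3a and Pgam2 had few counts at day 0, which makes their fold changes imprecise; whether depth or the 2 libraries per group limits the calls was not tested.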
